A study of Homo sapiens with 6 samples.

Results

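The genes described here encode the secreted proteins related to SPARC (osteonectin), which are SPOCK1, SPOCK2, SPARC, SPARCL1, SMOC1, SMOC2 and FSTL1. SPOCK1 was selected on its higher level after TGF-β1 in these same libraries, and the other members were chosen by their kinship to SPARC, with earlier results of these data known. Of the 7 genes, 6 had a row under their name among the 27830 genes of the deposited table, and SMOC2 was not analysed here. The libraries came from LX-2, an immortalised human hepatic stellate cell line, so that every sample belongs to 1 line. LX-2 cells given TGF-β1 at 10 ng/ml for 24 h in medium without serum made up 3 libraries, and LX-2 cells labelled as control made up the other 3. All cells were grown in DMEM with fetal bovine serum. Whether the controls were also kept without serum for that time is not stated, so lack of serum and TGF-β1 cannot be told apart. All differences between the groups are given as TGF-β1 over control.

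SPARC-family proteins share a follistatin-like domain and, in most members, a calcium-binding extracellular domain. They are matricellular proteins, which are secreted into the matrix and tune how cells meet it rather than forming fibres themselves. SPARC binds collagens and collagen assembly depends on it, SPOCK1 and SPOCK2 (testican-1 and testican-2) are proteoglycans that carry glycosaminoglycan chains, and FSTL1 is a secreted glycoprotein known in mouse lung as an antagonist of BMP4. Hepatic stellate cells are the main matrix-producing cells of the fibrotic liver, and TGF-β1 is their main profibrotic cytokine.

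Library totals were 13866957 to 16454700 counts with TGF-β1 and 14118402 to 17694675 counts in the controls. The limit of detection was taken as 3 counts, at most 0.216 CPM (counts scaled to library size). The stellate label was checked on 14 marker genes, which summed to 3496 to 4111 CPM with TGF-β1 and 3345 to 3491 CPM in the controls, and PDGFRB had 700 to 781 counts with TGF-β1 and 660 to 898 counts in the controls. Most of that sum came from COL1A1, VIM and TIMP1, which many mesenchymal cells express, with at least 7793 counts each in every library. DCN, LUM, RGS5 and PDGFRA had at most 14 counts in any library, and COL1A2 had 43 to 48 counts with TGF-β1 and 29 to 42 counts in the controls. DES and LRAT, which also mark stellate cells, had at most 5 counts in any library, and ACTA2 had 65 to 86 counts with TGF-β1 and 70 to 92 counts in the controls. No label states that replicates came from separate cultures. Intervals and p-values therefore rest on a spread that could be technical only.

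Among the 3 expressed members, SPOCK1 (ENSG00000152377) lies on chromosome 5 from 136975298 to 137598379, SPARC (ENSG00000113140) on the same chromosome from 151661096 to 151687165, and FSTL1 (ENSG00000163430) on chromosome 3 from 120392293 to 120451253, all on the minus strand of GRCh38 in GENCODE release 29. No exon base of SPOCK1 overlaps an exon of another gene, against 7.89% of the exon bases of SPARC and 4.33% of those of FSTL1. The partner of SPARC is CLMAT3 on the opposite strand, with 2 to 9 counts per library with TGF-β1 and 2 to 3 counts in the controls. The partners of FSTL1 are AC063952.1, a transcribed pseudogene on the opposite strand, and MIR198 on the same strand. Reads in these shared stretches cannot be assigned to 1 strand, since the library kit does not mark it. SPARC and FSTL1 were expressed in every library and were higher in every TGF-β1 library than in any control, and the 250 bases before their RefSeq start sites (GRCh38.p14, minus strand, written 5′ to 3′ along the transcribed strand) are shown so that their sequence can be read beside their levels. Promoter entries matched 6 of the 7 members, without SPOCK1, and both windows printed lie inside the longer GENCODE spans of their genes. Capitals mark GGAGG on either strand (CCTCC on the strand shown), the core of the GGA repeats for which the SPARC promoter is known, a motif chosen after the sequences were seen.
SPARC chr5:151686916-151687165: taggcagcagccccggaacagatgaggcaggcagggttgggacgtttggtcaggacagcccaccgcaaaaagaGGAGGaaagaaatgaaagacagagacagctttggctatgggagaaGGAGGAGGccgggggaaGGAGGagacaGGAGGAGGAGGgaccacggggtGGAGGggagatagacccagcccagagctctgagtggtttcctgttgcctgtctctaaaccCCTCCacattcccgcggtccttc
FSTL1 chr3:120450993-120451242: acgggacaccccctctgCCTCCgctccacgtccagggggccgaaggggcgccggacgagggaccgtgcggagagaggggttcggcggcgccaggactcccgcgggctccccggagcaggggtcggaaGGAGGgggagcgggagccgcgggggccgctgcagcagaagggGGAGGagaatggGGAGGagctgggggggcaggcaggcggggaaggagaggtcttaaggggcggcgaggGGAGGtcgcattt

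The SPARC window held 9 matches to GGAGG, counting overlapping ones, and 1.10% of 35116 RefSeq promoter windows of the same length held at least as many. A match is a description of these letters and not a bound site. FSTL1 held 5 matches, a number reached by 8.85% of the windows. CAGAC, a form of the short element that SMAD proteins bind, occurs on either strand in 38.0% of the windows and in neither of these. Shorter forms of that element, such as AGAC, which is present in the SPARC window, were not counted. TGANTCA, the AP-1 element, occurs in 6.57% of the windows and also in neither of these. TATAAA, found on either strand in 10.7% of the windows, was in neither, and GGGCGG, the GC box, was on either strand in 42.6% of the windows, 1 time in that of FSTL1 and not in that of SPARC.

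Levels between genes were compared as FPKM, the count scaled to gene length and library total. SPARC had 139, 158 and 159.9 FPKM in TGF-β1 replicates 1 to 3, against 115, 117 and 116 FPKM in control replicates 1 to 3. FSTL1 had 68.7, 61.8 and 48.6 FPKM with TGF-β1, against 37.8, 30.8 and 43.0 FPKM in the controls. SPOCK1 had 32.2, 26.6 and 19.2 FPKM with TGF-β1, against 8.49, 6.59 and 9.77 FPKM in the controls. Within each group the order was SPARC, FSTL1, SPOCK1, with no overlap between the libraries of neighbouring genes in that order. By mean FPKM, SPARC ranked 205 among the 27830 genes with TGF-β1 and 295 in the controls, FSTL1 ranked 666 with TGF-β1 and 1244 in the controls, and SPOCK1 ranked 1824 with TGF-β1 and 4891 in the controls.

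**Figure D1:**
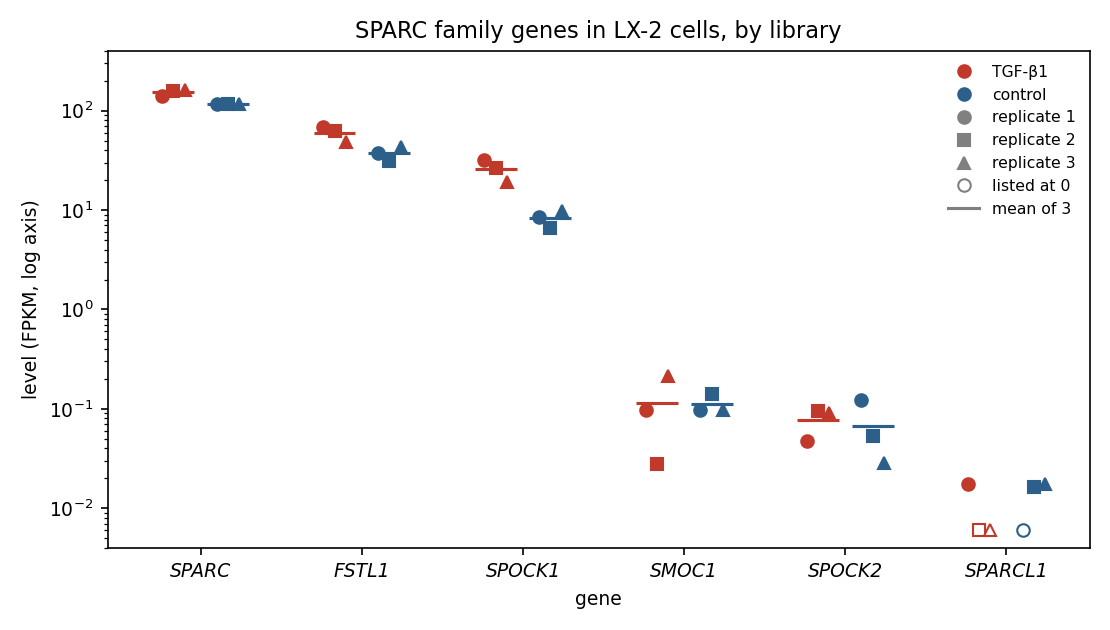
FPKM (log axis) of the 6 members with a row, for 3 TGF-β1 libraries (red, left of each pair) and 3 control libraries (blue, right); marker shapes are replicates, lines are means of 3 and open markers are values listed at 0. SPARC, FSTL1 and SPOCK1 lie above 6 FPKM in every library and above the controls in every TGF-β1 library, while SMOC1, SPOCK2 and SPARCL1 stay at or below 0.215 FPKM.

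The other members were near the limit of detection. SPOCK2, the second testican, had 5, 10 and 8 counts with TGF-β1 and 11, 6 and 3 counts in the controls. SMOC1, a secreted calcium-binding protein with a BMP-inhibiting role in Xenopus, had 7, 2 and 13 counts with TGF-β1 and 6, 11 and 7 counts in the controls. SPARCL1 (hevin), the closest relative of SPARC, had 1, 0 and 0 counts with TGF-β1 and 0, 1 and 1 counts in the controls. The groups overlapped for each of these genes, and none passed the filter on low counts. Summed over the group and scaled for depth, SPOCK2 counts stood at a ratio of 1.17 with a 95% exact interval of 0.614 to 2.24, and SMOC1 counts at 0.932 with an interval of 0.498 to 1.74. These intervals cover counting error only, and a difference inside them was not detectable at this depth. The FPKM of SMOC1 and SPOCK2 overlapped in both groups, so their order could not be told. SMOC1 had 0.0278 to 0.215 FPKM with TGF-β1 and 0.0973 to 0.142 FPKM in the controls, and SPOCK2 had 0.0479 to 0.0948 FPKM with TGF-β1 and 0.0286 to 0.122 FPKM in the controls.

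SPOCK1 showed the largest change of the 3 members that passed the filter, and its increase is the value on which it was selected. SPOCK1 had 3249, 2710 and 1649 counts with TGF-β1, against 743, 723 and 990 counts in the controls. On TMM-scaled library sizes this was 197, 160.5 and 121 CPM with TGF-β1, against 52.5, 42.1 and 60.3 CPM in the controls. The lowest TGF-β1 library was 2.01 times the highest control. The mean was 159.5 ± 37.9 CPM with TGF-β1 and 51.6 ± 9.12 CPM in the controls (SD, n = 3 each), a log2 fold change of 1.63 ± 0.19 (SE) or 3.09-fold, with a 95% interval of 2.31 to 4.15. Among 14463 tested genes this log2 fold change was number 35 counting increases only, and number 42 by absolute size. SPOCK1 kept a log2 fold change of 1.62 without TGF-β1 replicate 2, but was then not called. The fold, interval and call of SPOCK1 come from the contrast on which it was selected, so they describe these libraries and support nothing further. In a bulk sample more RNA per cell and more cells that express a gene cannot be told apart.

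FSTL1 was the second in size of change. FSTL1 had 9468, 8606 and 5710 counts with TGF-β1, against 4517, 4617 and 5944 counts in the controls. The third control had more counts than the third TGF-β1 library, but from a larger library. Scaled to library size, FSTL1 had 574, 509.6 and 419 CPM with TGF-β1, against 319, 269 and 362 CPM in the controls, and the groups did not overlap. The means were 501 ± 77.7 CPM with TGF-β1 and 316 ± 46.6 CPM in the controls (SD, n = 3 each), a log2 fold change of 0.66 ± 0.15 (SE) or 1.58-fold, with a 95% interval of 1.26 to 1.99. That interval is not adjusted for the number of tested genes, and FSTL1 was not called (edgeR adjusted p = 0.0995).

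SPARC, the founding member and the most abundant, had the smallest change of the 3. SPARC had 10522, 12044 and 10288 counts with TGF-β1, against 7566, 9580 and 8802 counts in the controls. Scaled to library size, SPARC had 638, 713 and 756 CPM with TGF-β1, against 534, 558 and 536 CPM in the controls. The means were 702 ± 59.6 CPM with TGF-β1 and 542 ± 13.1 CPM in the controls (SD, n = 3 each), a log2 fold change of 0.37 ± 0.12 (SE) or 1.29-fold, with a 95% interval of 1.08 to 1.55. SPARC was not called either (edgeR adjusted p = 0.179). Its lowest TGF-β1 library was 1.14 times its highest control. In FPKM the order of contributions ran the other way from the folds, since SPARC added 36.2 FPKM, FSTL1 22.5 FPKM and SPOCK1 17.7 FPKM to the difference of 76.4 FPKM between the group means of the summed family.

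Of the 3 members that passed the filter, edgeR called 1, SPOCK1, at an adjusted p under 0.05, and FSTL1 and SPARC were not called. Over all 14463 tested genes edgeR called 0.366%, with 0.187% called higher and 0.180% called lower. In all 3 members every TGF-β1 library was above every control, which held for 7.93% of the tested genes. The selection of SPOCK1 used this contrast, so nothing is read from these counts. After removal of the library-specific trend on transcript GC content, SPOCK1 and FSTL1 were both called higher, against 1.67% of the tested genes.

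**Figure D2:**
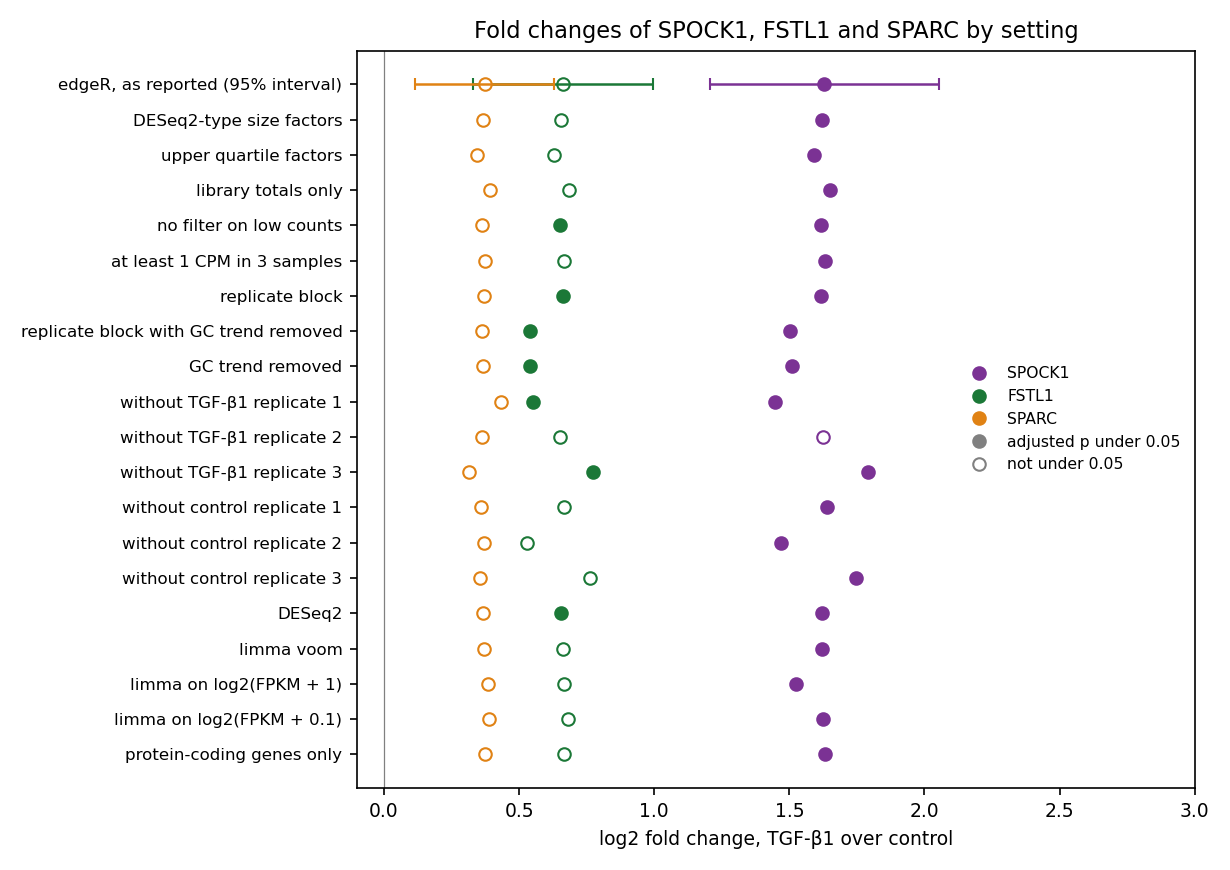
Log2 fold change (TGF-β1 over control) of SPOCK1, FSTL1 and SPARC under the reported edgeR fit, with its 95% interval, and under each alternative; filled points were called at an adjusted p under 0.05 and open points were not. SPOCK1 stays between 1.45 and 1.79, FSTL1 between 0.53 and 0.77 and SPARC between 0.31 and 0.43.

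Shares of the summed family level and ratios to SPOCK1 restate in part the difference on which SPOCK1 was selected, and they are given as a description. The summed FPKM was 238 ± 9.28 with TGF-β1 and 162 ± 7.36 in the controls (SD, n = 3 each). SPOCK1 took 10.9% ± 2.49 of it with TGF-β1 and 5.10% ± 0.766 in the controls, with no overlap between the groups. SPARC took 64.0% ± 6.08 with TGF-β1 and 71.9% ± 3.49 in the controls, and these groups overlapped, since TGF-β1 replicate 3 had 70.1% and control replicate 3 had 68.7%. The share of FSTL1 was 25.0% ± 3.63 with TGF-β1 and 22.9% ± 2.75 in the controls, a difference smaller than the spread between replicates. The ratio of SPARC to SPOCK1 in FPKM was 4.33, 5.94 and 8.33 in TGF-β1 replicates 1 to 3, against 13.6, 17.7 and 11.9 in control replicates 1 to 3.

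Of the 3 ratios between these genes, that of FSTL1 to SPOCK1 varied least within groups. It was 2.13, 2.33 and 2.54 with TGF-β1, against 4.45, 4.68 and 4.40 in the controls. The ratio of SPARC to FSTL1 was 2.03, 2.55 and 3.29 with TGF-β1, against 3.06, 3.79 and 2.70 in the controls, and the groups overlapped. SPOCK1 and FSTL1 ranked the libraries the same way within each group: TGF-β1 replicate 1 was highest and replicate 3 lowest, and control replicate 3 was highest and replicate 2 lowest. SPARC ranked the TGF-β1 libraries in the opposite order and the controls with replicate 2 highest.

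This spread was larger than counting error. The coefficient of variation of SPOCK1 in CPM was 23.8% with TGF-β1 and 17.7% in the controls, where counting alone gives 1.99% with TGF-β1 and 3.49% in the controls. For FSTL1 it was 15.5% with TGF-β1 and 14.7% in the controls, where counting alone gives 1.12% with TGF-β1 and 1.41% in the controls. For SPARC it was 8.49% with TGF-β1 and 2.41% in the controls, where counting alone gives 0.956% with TGF-β1 and 1.08% in the controls.

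Libraries differed in how levels follow transcript GC content, which is 44.3% for SPOCK1, 44.1% for FSTL1 and 47.3% for SPARC. The fitted trend at the GC content of SPOCK1 was 0.23, 0.02 and -0.08 on the log2 scale in TGF-β1 replicates 1 to 3, against -0.02, -0.20 and 0.05 in control replicates 1 to 3. With that trend removed, the within-group SD of log2 CPM was 0.17 for SPOCK1, against 0.31 as counted, and 0.09 for FSTL1, against 0.22 as counted. For SPARC the SD was larger, at 0.14 against 0.09. The log2 fold change with the trend removed was 1.51 ± 0.11 (SE) for SPOCK1, 0.54 ± 0.08 for FSTL1 and 0.37 ± 0.10 for SPARC. The trend was fitted on these same libraries, and its part in the differences between the groups was not tested.

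**Figure D3:**
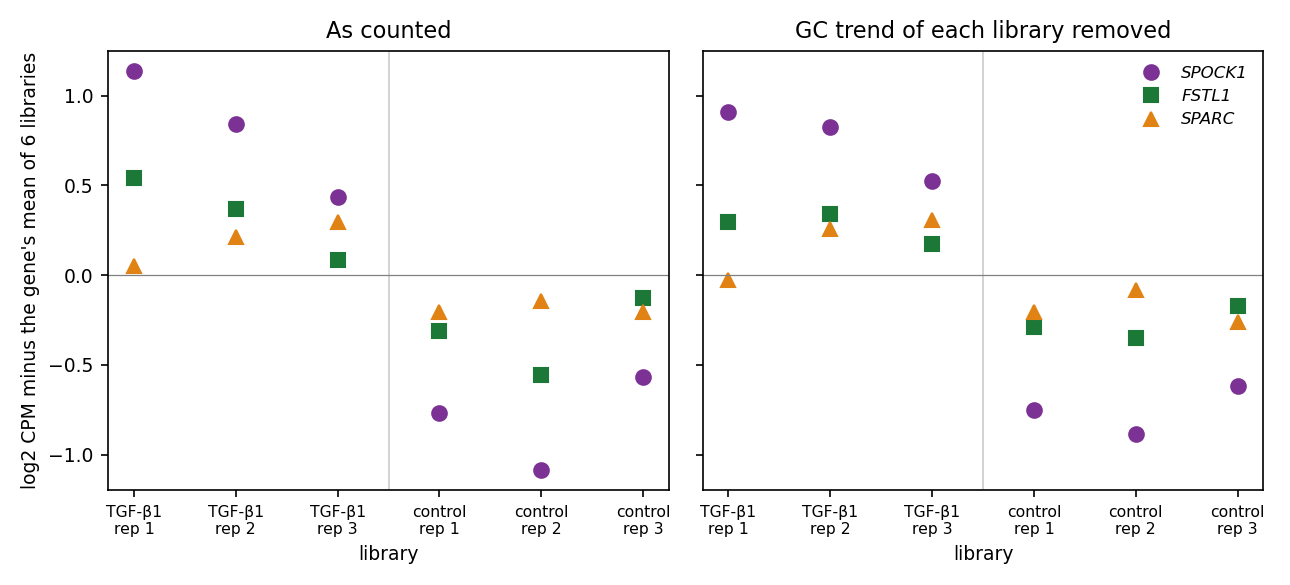
Log2 CPM of SPOCK1, FSTL1 and SPARC in each library minus the gene's own mean of 6 libraries, as counted (left) and with each library's GC trend removed (right). Every TGF-β1 library lies above every control library for each gene in both panels, and SPOCK1 and FSTL1 spread less within groups on the right, while SPARC spreads more.

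Markers of other cell types were summed as CPM on library totals beside these results. The 4 of 9 hepatocyte markers with a row summed to 57.3 to 72.5 CPM with TGF-β1 and 50.3 to 54.1 CPM in the controls, and the 6 of 9 leukocyte and macrophage markers to 26.2 to 29.5 CPM with TGF-β1 and 29.6 to 37.1 CPM in the controls. Nearly all of the hepatocyte sum came from CPS1 and SERPINA1. CPS1 had 488 to 735 counts with TGF-β1 and 339 to 506 counts in the controls. SERPINA1 had 419 to 444 counts with TGF-β1 and 371 to 540 counts in the controls. APOA1 and APOB had at most 1 count in any library. Among the leukocyte and macrophage markers, CD14 had 150 to 168 counts with TGF-β1 and 209 to 301 counts in the controls, ITGAX had 148 to 152 counts with TGF-β1 and 192 to 231 counts in the controls, and CSF1R had 91 to 116 counts with TGF-β1 and 63 to 96 counts in the controls. PTPRC, the pan-leukocyte marker, had 6 to 16 counts with TGF-β1 and 3 to 9 counts in the controls. Neither summed range overlapped between the groups, but the leukocyte and macrophage ranges nearly met, at 29.49 CPM with TGF-β1 and 29.57 CPM in the controls. How often such sums fail to overlap is not given, so nothing is read from this. The part of these markers in the changes of SPOCK1, FSTL1 and SPARC was not tested. The 8 of 9 endothelial markers summed to 435 to 453 CPM with TGF-β1 and 443 to 454 CPM in the controls, and the 6 of 7 epithelial markers to 498 to 672 CPM with TGF-β1 and 629.6 to 737 CPM in the controls. Most of the endothelial sum came from TIE1 and FLT1, with at least 1658 counts each in every library. CDH5 and STAB2 had at most 4 counts in any library, and PECAM1 had at most 58 counts. KRT8 had 4375 to 6129 counts with TGF-β1 and 5062 to 7500 counts in the controls, KRT18 had 2464 to 3052 counts with TGF-β1 and 3148 to 4219 counts in the controls, and EPCAM had 0 or 1 counts.

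The profiles most like that of SPOCK1 were found as the smallest root mean square difference in mean-centred log2 CPM over the 6 libraries, among 10639 tested genes with a symbol and a mean of at least 5 CPM. They were VCAN (0.189), SCG5 (0.222), MOSPD2 (0.223), ITGAV (0.224) and FN1 (0.234). VCAN, which encodes the large chondroitin sulfate proteoglycan versican, had 113, 74.0 and 55.0 CPM with TGF-β1, against 19.3, 19.4 and 25.2 CPM in the controls. ITGAV, which encodes the integrin αv chain, had 187, 124 and 75.4 CPM with TGF-β1, against 52.0, 38.4 and 51.4 CPM in the controls. VCAN, MOSPD2, ITGAV and FN1 placed the TGF-β1 libraries in the same order as SPOCK1, and SCG5 did not. Transcript GC content was 42.9% for VCAN, 35.9% for MOSPD2, 38.3% for ITGAV, 42.2% for FN1 and 46.5% for SCG5. The GC trend of each library was not removed for this measure, and its part in these orders was not tested. FSTL1 was at 0.482, number 488 in that order, and SPARC at 0.700, number 2333, where the median of the candidates was 0.871. The measure includes the difference between the groups, on which SPOCK1 was selected. Likeness to SPOCK1 therefore restates that difference in part and is given as a description.

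**Figure D4:**
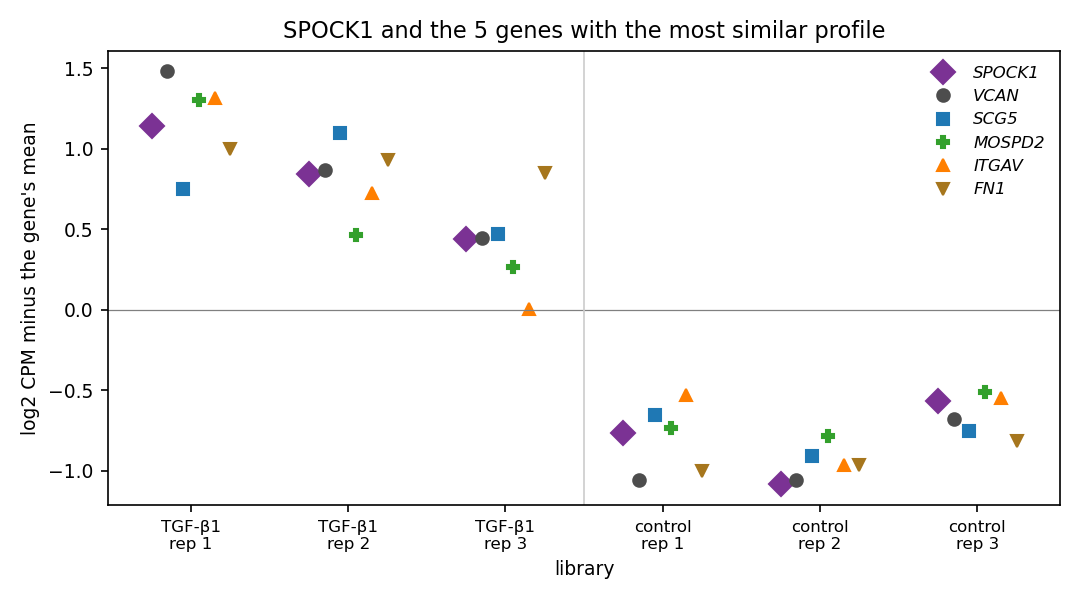
Log2 CPM minus the gene's mean over 6 libraries for SPOCK1 (purple diamonds) and the 5 genes with the smallest root mean square difference from it, with TGF-β1 libraries left and controls right. All 6 genes lie above their mean in every TGF-β1 library and below it in every control, with ITGAV in TGF-β1 replicate 3 almost at its mean. This follows in part from how the genes were picked.

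Genes that bind, process or modify these proteins were described as 8 lists with 135 tested genes, beside a median log2 fold change of 0.01 over all tested genes. The lists were chosen with earlier results of these data known, so their direction is not independent evidence. The list of collagens and receptors bound by SPARC had 13 tested genes, among them TGM2 and SERPINH1, which are neither. In this list edgeR called 3 higher and 0 lower, against 0.187% and 0.180% of all tested genes, with a median log2 fold change of 0.41. DESeq2 called 4 higher and 1 lower, limma voom 3 higher and 0 lower, and edgeR with the GC trend removed 6 higher and 1 lower. COL4A1, a basement membrane collagen, was at 497 ± 65.2 CPM with TGF-β1 and 271 ± 23.9 CPM in the controls (edgeR adjusted p = 0.0202), and COL3A1 and COL5A1, chains of fibrillar collagens, rose 1.64-fold (edgeR adjusted p = 0.0349) and 1.65-fold (edgeR adjusted p = 0.0418). Among the list's uncalled genes, COL1A1, a chain of type I collagen, had 1767 ± 155 CPM with TGF-β1 and 1329 ± 99.6 CPM in the controls (edgeR adjusted p = 0.159).

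Testicans are known to bear on membrane-type metalloproteinases and on cathepsin L. Of 19 tested proteases and inhibitors, edgeR called 2 higher and 1 lower, with a median log2 fold change of 0.04. DESeq2 called 2 higher and 2 lower, limma voom 2 higher and 1 lower, and edgeR with the GC trend removed 2 higher and 3 lower. MMP2 (gelatinase A), whose activation by MMP14 SPOCK1 is known to inhibit, had 146 ± 14.1 CPM with TGF-β1 and 59.2 ± 9.36 CPM in the controls, a 2.47-fold increase (edgeR adjusted p = 0.00308). MMP14 itself had 927 ± 68.5 CPM with TGF-β1 and 825 ± 119.6 CPM in the controls (edgeR adjusted p = 0.577). CTSL, the gene of cathepsin L, had 373 ± 26.4 CPM with TGF-β1 and 505 ± 36.7 CPM in the controls, and was not called (edgeR adjusted p = 0.146). MMP13, which cleaves fibrillar collagen, was low in both groups and rose 6.95-fold, at 2.21 ± 0.608 CPM with TGF-β1, against 0.315 ± 0.0622 CPM in the controls (edgeR adjusted p = 0.0126), and MMP1 (interstitial collagenase) fell to 706 ± 73.3 CPM with TGF-β1, against 1283 ± 85.5 CPM in the controls (edgeR adjusted p = 0.0138). The log2 fold change of MMP13 was 2.80 by edgeR and 0.68 on log2(FPKM + 1), a scale that understates changes of low genes.

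No gene was called by edgeR among the 34 tested genes of glycosaminoglycan chain synthesis, which build the chains that testicans carry (median log2 fold change -0.02). At an unadjusted p under 0.05, 6 of these were higher and 0 lower, DESeq2 and edgeR with the GC trend removed called 2 higher each, and limma voom called 0. Over all 14463 tested genes DESeq2 called 493 higher and 122 lower, and limma voom 26 higher and 29 lower. With the GC trend removed, edgeR called 242 higher and 225 lower. The share of all tested genes at an unadjusted p under 0.05 is not given, so nothing is read from those counts in any list. None of the 8 other follistatin-domain genes was called by edgeR, DESeq2 or limma voom, with 2 higher and 3 lower at an unadjusted p under 0.05, but edgeR with the GC trend removed called 2 higher and 2 lower. SPOCK3, the third testican, belongs to that list and had 25, 16 and 9 counts with TGF-β1, against 19, 18 and 9 counts in the controls. Among 17 growth factors and receptors bound or modulated by SPARC, edgeR, with or without the GC trend, and limma voom called 0 and DESeq2 called 2 higher, with 3 higher and 1 lower at an unadjusted p under 0.05. Among 16 BMP pathway genes and FSTL1 receptors, edgeR and limma voom called 0 and DESeq2 called 2 higher and 1 lower, with 3 higher and 2 lower at an unadjusted p under 0.05, and edgeR with the GC trend removed called 1 higher and 1 lower.

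Of 15 other matricellular genes edgeR called 3 higher and 0 lower: the cell adhesion protein gene TGFBI (3.35-fold, edgeR adjusted p = 7.7e-05), the tenascin gene TNC (1.77-fold, edgeR adjusted p = 0.0138) and the elastic fibre gene FBLN5 (1.99-fold, edgeR adjusted p = 0.0485), and the median log2 fold change was -0.16. FBLN5 was not called in 9 of 19 alternatives, among them limma voom, both FPKM scales and library totals. On these genes DESeq2 called 3 higher and 0 lower, limma voom 2 higher and 0 lower, and edgeR with the GC trend removed 3 higher and 1 lower. Of 16 direct TGF-β response genes edgeR called 5 higher and 0 lower: the fibronectin gene FN1 (3.61-fold, edgeR adjusted p = 5.1e-05), TGFBI, the actin-binding gene TAGLN (3.11-fold, edgeR adjusted p = 0.000682), the microfibril gene LTBP2 (2.55-fold, edgeR adjusted p = 0.00289) and PMEPA1, an inhibitor of TGF-β signalling (2.42-fold, edgeR adjusted p = 0.0314), and the median was 0.41. DESeq2 called 7 of these higher and 1 lower, limma voom 6 higher and 0 lower, and edgeR with the GC trend removed 7 higher and 1 lower. Without TGF-β1 replicate 2, edgeR called 3 of the 13 called genes of the 8 lists, FN1, TGFBI and TAGLN, and without control replicates 1 or 3 it called 5 of them.

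**Figure D5:**
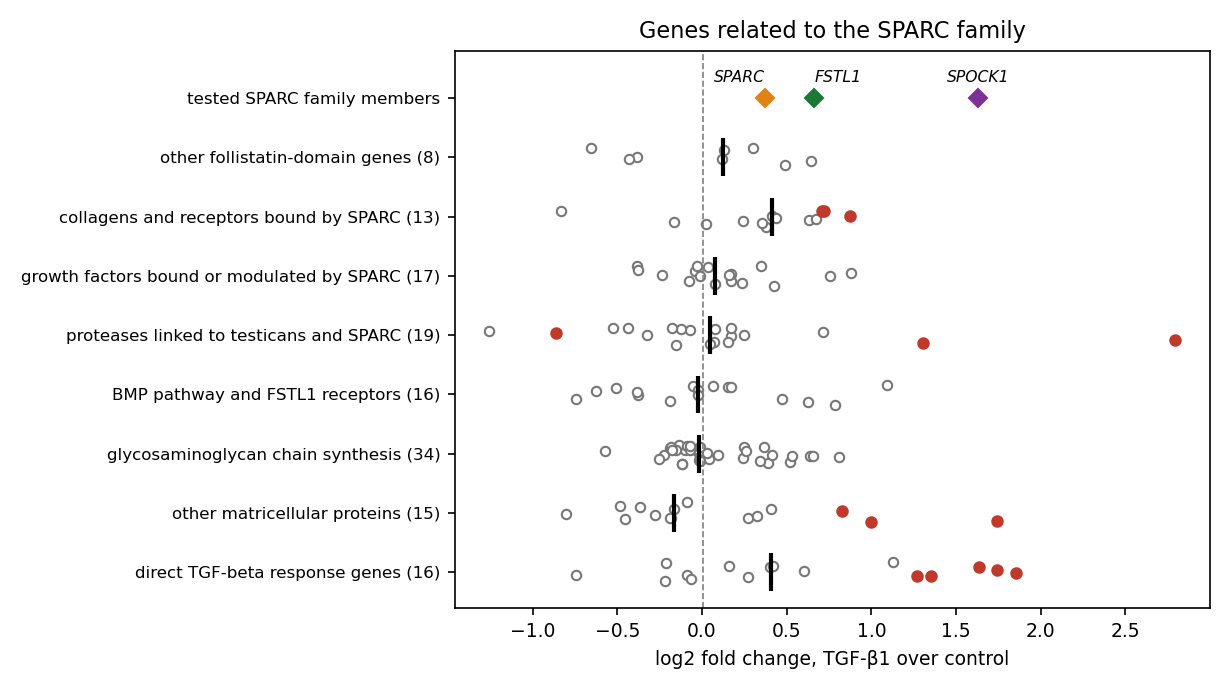
Log2 fold changes (TGF-β1 over control) of SPARC, FSTL1 and SPOCK1 (diamonds, top) and of the tested genes of 8 related lists, with the number tested in brackets; red points were called by edgeR at an adjusted p under 0.05, open points were not, black bars are list medians and the dashed line is the median of all tested genes. Calls lie among the collagens, proteases, matricellular and direct response genes. SPOCK1, which was selected on this contrast, is at 1.63. The 16 direct response genes run from -0.74 to 1.85, with a median of 0.41.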

How the data were processed

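RNA of 6 LX-2 samples was extracted with Trizol and made into libraries with a NEBNext Ultra kit, per the labels' protocols. That kit does not mark strand. HISAT2, HTSeq 0.13.5 and the build GRCh38 are named by the submitters' processing notes, without their roles. No annotation release is stated in these sources. Per the file headers, the deposited table holds a raw read count and an FPKM value per gene and sample. The FPKM values that the authors deposited follow from the counts: in all 23850 genes with a count in at least 2 libraries, the implied gene length was the same within 0.01 bases.

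Counts were fitted with edgeR 4.0.16 in R 4.3.3 (quasi-likelihood F test, robust, TMM, filterByExpr), without a replicate block, with Benjamini-Hochberg adjustment over 14463 genes and calls at an adjusted p under 0.05. CPM use TMM-scaled library sizes. Intervals of 95% come from the fit, per gene and without adjustment for the number of tested genes. The code was tested on simulated data. Members and lists were chosen with earlier results of these data known. Named genes are the members, up to 4 called genes per list by absolute log2 fold change, and the 5 profiles nearest to SPOCK1. COL1A1, MMP14, CTSL, SPOCK3 and PMEPA1 were named after their values were seen. Libraries of a group differed by more than counting noise (chi-square of 5.21 to 45.7 per degree of freedom). Alternatives were other scaling, other filters, a block, left-out samples, DESeq2 1.42.0, limma 3.58.1 on voom values and on log2(FPKM + 1) and log2(FPKM + 0.1), protein-coding genes, and removal of each library's loess trend (span 0.5) on the GC content of the longest transcript in GENCODE 29. Promoter windows are those of RefSeq (GRCh38.p14), with entries for 6 of the 7 members and none for SPOCK1.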

Additional observations from a re-analysis of the deposited data

How the results depend on the processing

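SPOCK1, FSTL1 and SPARC kept a positive log2 fold change in all 19 alternatives. SPOCK1 was called in 18 of them, SPARC in 0 and FSTL1 in 7. FSTL1 was called at a log2 fold change of 0.65 without a filter, 0.66 with DESeq2, 0.54 with the GC trend removed, 0.66 with the replicate block and 0.54 with the block and the GC trend removed, and also without TGF-β1 replicates 1 or 3. With 1 sample left out, the log2 fold change of SPOCK1 was 1.45 to 1.79, that of FSTL1 0.53 to 0.77 and that of SPARC 0.31 to 0.43, and 0 to 2 members were called. The number of members called was 2 without a filter, with the replicate block, with the block and the GC trend removed, with the GC trend removed and with DESeq2. Over all tested genes, 53 were called (27 higher, 26 lower), against 111 with upper quartile factors (57, 54), 1240 without a filter (1071, 169), 467 with the GC trend removed (242, 225), 615 with DESeq2 (493, 122), 527 with the replicate block (429, 98) and 342 with the block and the GC trend removed (173, 169). With 1 sample left out it was 4 to 1671, with 4 without TGF-β1 replicate 2, 13 and 15 without control replicates 1 and 3, 324 without TGF-β1 replicate 1 and 1671 without TGF-β1 replicate 3. In the 8 lists 13 genes were called, against 33 without a filter, 26 with the replicate block, 27 with the block and the GC trend removed, 30 with the GC trend removed, 25 with DESeq2 and 3 to 37 with 1 sample left out. The causes of these differences were not tested.

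The correlation between the deviations of TGF-β1 and control samples with the same number was -0.355 to 0.176. With 3 libraries per group, these values cannot tell whether the numbers pair the samples. Depth limits SPOCK2, SMOC1 and SPARCL1, with at most 13 counts per library.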
